A study of Mus musculus with 10 samples.

Results

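The genes described here are the microRNA genes of the mouse hypothalamus that lie outside the imprinted Meg3 to Dio3 region of chromosome 12, with the Mir181 genes also left out. They were taken from the array by name, as probe sets paired with exactly 1 gene whose symbol starts with Mir and a digit or with Mirlet7, and with a log2 level above 4.32, which is a signal of 20, in 3 or more of the 8 animals arrayed singly. Of 35556 probe sets in all, 268 carried such a name, for 264 genes, and 100 of them passed the level filter and were tested, for 98 genes. Of the 98, 96 were microRNA hairpin genes and the other 2, Mir100hg and Mir99ahg, are long host transcripts whose names begin the same way. A further 67 probe sets with microRNA names were paired with several genes and were left out.

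The RNA came from the hypothalamus of male CDF1 (BALB/c x DBA/2) mice aged 10 to 11 weeks. Tumour-bearing mice had been given 1000000 C26 colon adenocarcinoma cells in 0.2 ml HBSS under the skin, control mice 0.2 ml HBSS alone, and the tissue was taken on day 20. C26 is a mouse colon tumour line that causes cachexia, the wasting that accompanies some cancers. There were 3 controls and 5 tumour-bearing mice with an array each, and a pooled array for each group, of 4 control or 5 tumour-bearing animals; whether the pools contain RNA of the same mice is not stated, so they entered no main test. With so few arrays the precision of every value is limited by their number.

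A microRNA begins as a long primary transcript. Drosha with Dgcr8 cuts out a hairpin, Dicer1 trims the hairpin to a short duplex, and an Argonaute protein keeps 1 strand, which finds its target messages mainly through its seed, bases 2 to 8. Many hairpins lie in introns of ordinary genes and are transcribed with them. In the hypothalamus microRNAs are needed in neurons that control feeding, and let-7, miR-103 and miR-107 are known elsewhere in the body for their effects on glucose handling. The arrays read whole-transcript cDNA made from total RNA, so a level here does not separate the primary transcript, the hairpin and the mature microRNA, and mature microRNA was not measured as such. Loci with near-identical mature sequences may share signal, and the probe sequences were not used here.

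The mature sequences of the loci on which the results turn are shown with the seed in capitals, 5′ to 3′, from RefSeq on GRCm38.p6, in which 87 of the 96 hairpin genes were found. The let-7 group comes first, then the miR-30 and miR-384 group, miR-103 and miR-107, the miR-99 and miR-100 group, miR-326 and miR-330, 2 microRNAs with 2 tested loci each, and 3 with a large difference of their own. Entries were not matched for Mir145a, Mir320, Mir328, Mir486, Mir598, Mir383, Mir30d, Mir187 and Mir297b.
miR-98-5p: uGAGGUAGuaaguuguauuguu
let-7b-5p: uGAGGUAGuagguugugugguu
let-7c-5p: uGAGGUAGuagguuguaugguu
let-7d-5p: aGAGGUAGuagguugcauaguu
let-7e-5p: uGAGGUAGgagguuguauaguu
let-7i-5p: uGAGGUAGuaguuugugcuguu
miR-30e-5p: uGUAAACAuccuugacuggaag
miR-30c-5p: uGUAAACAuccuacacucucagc
miR-384-5p: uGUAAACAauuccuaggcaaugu
miR-107-3p: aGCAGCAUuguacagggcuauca
miR-103-3p: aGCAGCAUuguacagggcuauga
miR-99a-5p: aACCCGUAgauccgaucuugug
miR-100-5p: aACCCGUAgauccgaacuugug
miR-326-3p: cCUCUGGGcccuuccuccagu
miR-330-5p: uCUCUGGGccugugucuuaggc
miR-9-5p: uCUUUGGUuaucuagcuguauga
miR-7a-5p: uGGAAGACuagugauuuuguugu
miR-149-5p: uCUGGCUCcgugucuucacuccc
miR-708-5p: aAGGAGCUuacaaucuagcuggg
miR-670-5p: aUCCCUGAguguauguggugaa

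No microRNA gene of this set passed the test, while small positive differences were common among them. In limma's fit over all 22837 tested probe sets, with Benjamini-Hochberg adjustment and a threshold of 0.05, 0 of 98 genes were called, against 13 probe sets, or 0.0569%, of the whole table. The 13 were all higher in tumour-bearing mice. The lowest adjusted p among the microRNA genes was 0.277, shared by Mirlet7d, Mir149, Mir99a and Mir30e, and over the 22 alternative settings no gene of the set was called (lowest adjusted p 0.101). At an unadjusted p under 0.05 in the same limma fit, 27 genes were higher and 0 lower in tumour-bearing mice, where 4.71% of all tested probe sets were higher and 5.82% lower. That count of 27 fell to 14 without control mouse 2, to 16 without tumour-bearing mouse 2 or mouse 5, and to 17 without control mouse 3, each of which leaves fewer animals in the test. Among the 27, Mir326 and Mir361 had every control at or below the level filter. The count was 23 with values below the filter set to it. Of the 70 genes above the level on all 8 arrays, 19 were among the 27.

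The difference, tumour-bearing minus control on the log2 scale, was positive for 77 of the 98 genes, beside 48.6% of all tested probe sets. Its median was 0.15, with quartiles of 0.04 and 0.30, and the median over all tested probe sets was -0.0031. These 98 are the genes that passed the level filter, so the count describes them only: of the 168 probe sets with such names that were below it, 95 had a positive difference, with a median of 0.024, and over all 268 probe sets the count was 174 and the median 0.068. For the 70 genes above the level on all 8 arrays, 54 differences were positive, with a median of 0.14. Only 3 genes passed with every control at or below the level (Mir326, Mir361 and Mir135a-2), and 0 passed with every tumour-bearing mouse below it. Just inside the filter lay Mir340, Mir135a-2 and Mir125a, with differences of 0.16, 0.32 and -0.10, and just outside it lay Mir32, Mir449c and Mir27b, with 0.38, 0.0041 and 0.51.

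**Figure D1:**
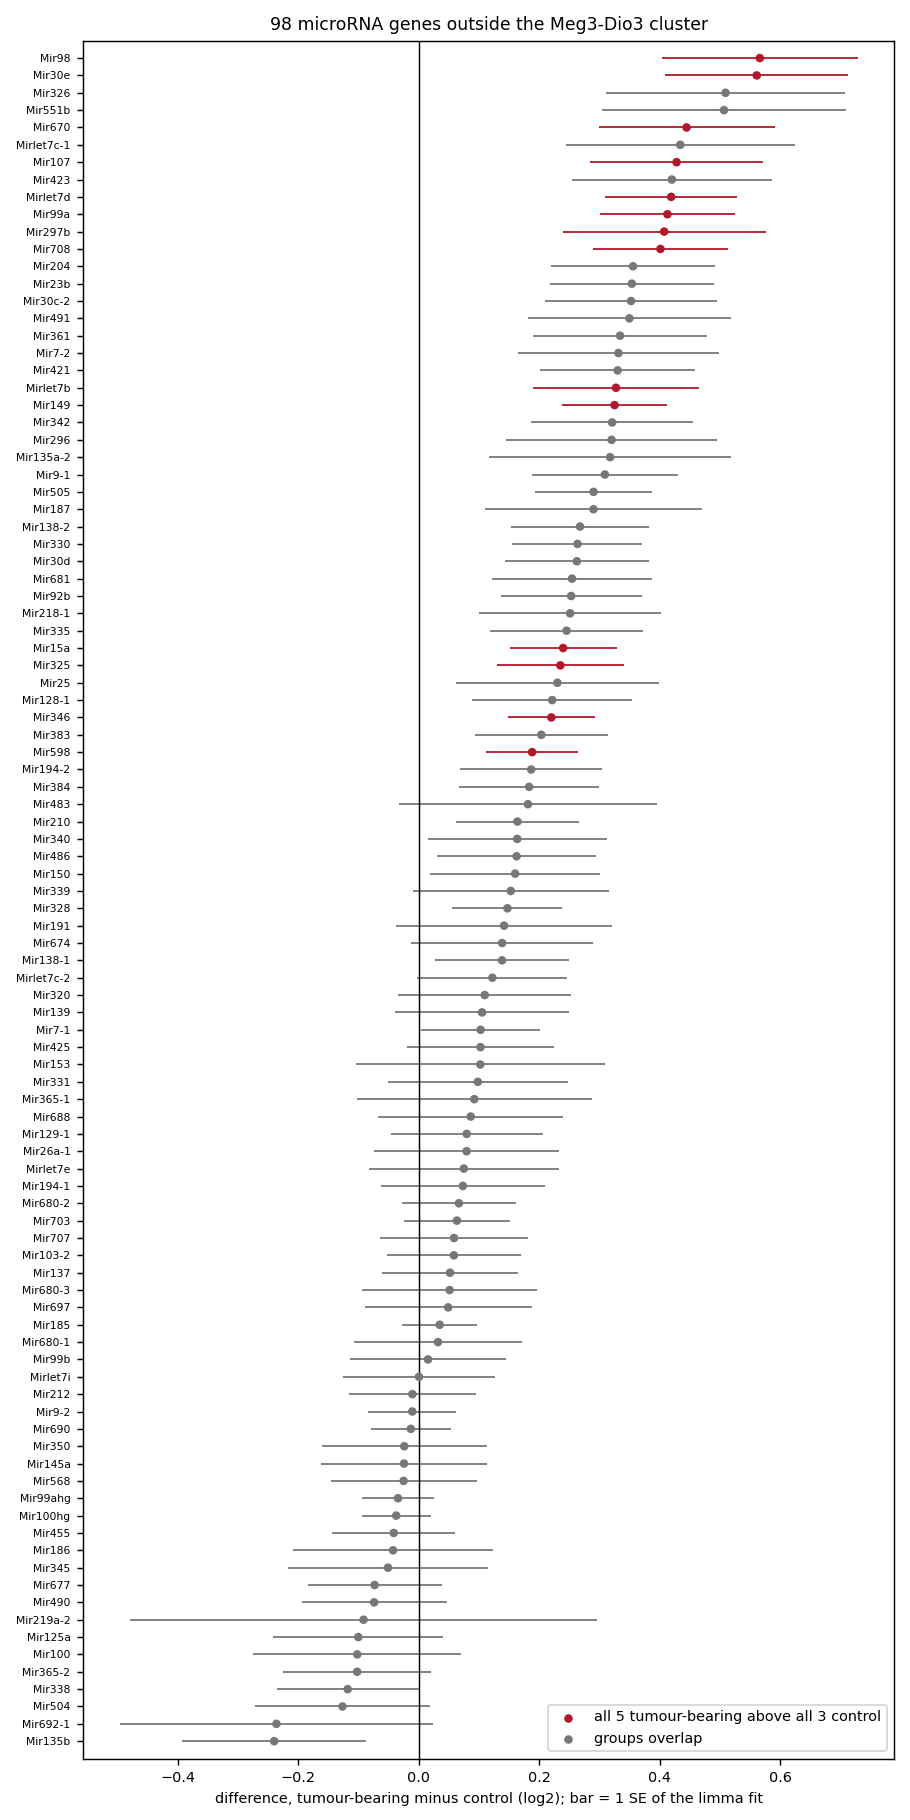
Difference between tumour-bearing and control mice (x axis, log2) for each of the 98 microRNA genes (y axis, ordered by the difference), with 1 SE of the limma fit as a bar; red marks genes without overlap, the 5 tumour-bearing mice being higher than each of the 3 controls. Most points lie right of 0, from 0.57 for Mir98 down to -0.24 for Mir135b, and the red points are all on the right.

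In 14 of the 98 genes every tumour-bearing mouse lay above every control, and in 0 every tumour-bearing mouse lay below; the corresponding shares of all tested probe sets were 3.28% and 4.17%. The 14 were Mir98, Mir30e, Mir670, Mir107, Mirlet7d, Mir99a, Mir297b, Mir708, Mirlet7b, Mir149, Mir15a, Mir325, Mir346 and Mir598. With 1 animal left out the number was 15 to 27, and it passed 1.5 times 14 without control mouse 1 (27), control mouse 3 (22) or tumour-bearing mouse 3 (23), where fewer animals have to be apart. The shares of all tested probe sets were then 7.89%, 6.42% and 4.93%.

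The largest difference was in Mir98, a let-7 gene on the X chromosome (chrX:151913214-151913321, plus strand, GRCm38.p6), inside the span of the ubiquitin ligase gene Huwe1. Its log2 levels were 4.18, 3.79 and 4.32 in the control mice and 4.66, 4.83, 4.37, 4.73 and 4.73 in the tumour-bearing mice. The groups did not overlap, but tumour-bearing mouse 3 lay close above control mouse 3. The means were 4.10 ± 0.28 (SD, n = 3) and 4.67 ± 0.17 (SD, n = 5), a 1.48-fold difference (log2 0.57 ± 0.16 SE, limma adjusted p = 0.295). Control mice 1 and 2 were below the level filter. When values below the filter were set to it, the difference of Mir98 was 0.34, less than the 0.56 of Mir30e in that setting.

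Mir30e (chr4:120772606-120772697, minus strand) lies inside Nfyc, which encodes a subunit of the CCAAT-binding factor NF-Y. It read 4.60, 4.83 and 5.22 in the controls and 5.66, 5.54, 5.37, 5.31 and 5.33 in the tumour-bearing mice, a 1.48-fold difference (log2 0.56 ± 0.15 SE, limma adjusted p = 0.277). The groups did not overlap, and control mouse 3 was the nearest to the tumour-bearing mice. The pooled arrays read 4.68 and 5.31, in the same order.

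Mirlet7d had the tightest controls of the let-7 genes (chr13:48536012-48536114, minus strand). Its levels were 5.11, 5.10 and 5.01 in the controls and 5.35, 5.58, 5.73, 5.43 and 5.37 in the tumour-bearing mice (log2 difference 0.42 ± 0.11 SE, limma adjusted p = 0.277). The lowest tumour-bearing mouse was therefore well clear of the highest control, and the pools gave 5.16 and 5.54. Mir149 (chr1:92850378-92850443, plus strand) was also without overlap, at 5.18, 5.22 and 5.31 against 5.61, 5.44, 5.54, 5.66 and 5.57 (0.33 ± 0.09 SE, limma adjusted p = 0.277), and its pools, at 5.35 and 5.42, differed less.

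Mir107 (chr19:34820687-34820773, minus strand) lies in Pank1, a pantothenate kinase gene of coenzyme A synthesis. It read 5.49, 5.59 and 5.75 in the controls and 6.06, 5.78, 5.89, 6.02 and 6.44 in the tumour-bearing mice (0.43 ± 0.14 SE, limma adjusted p = 0.357). Tumour-bearing mouse 2 was only just above control mouse 3. Mir708, in the teneurin gene Tenm4, read 5.10, 5.03 and 5.09 against 5.42, 5.65, 5.22, 5.60 and 5.50 (0.40 ± 0.11 SE, limma adjusted p = 0.292), without overlap. Mir670 (chr2:94261300-94261399, minus strand) read 4.47, 4.65 and 4.21 against 4.74, 5.11, 4.92, 4.69 and 4.98 (0.44 ± 0.15 SE, limma adjusted p = 0.355), again without overlap. The pools lay the other way for Mir670, at 4.55 for controls and 4.51 for tumour-bearing mice, and in the same order as the animals for Mir107 (4.81 and 5.42) and Mir708 (5.48 and 5.76).

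The other genes among the 12 largest positive differences were Mir326 (0.51 ± 0.20 SE), Mir551b (0.51 ± 0.20), Mirlet7c-1 (0.43 ± 0.19), Mir423 (0.42 ± 0.17), Mir99a (0.41 ± 0.11) and Mir297b (0.41 ± 0.17). Of these 6, Mir99a and Mir297b did not overlap between groups. Mir326 (chr7:99552269-99552363, plus strand) was at or below the level filter in all 3 controls, at 4.21, 3.95 and 4.08, and read 4.60, 4.80, 4.43, 4.12 and 5.00 in the tumour-bearing mice. Tumour-bearing mouse 4 lay among the controls. The pools of Mir326 lay the other way, with 4.58 for controls and 4.10 for tumour-bearing mice. When values below the filter were set to it, the difference of Mir326 was 0.31, so its size depends on levels near the bottom of the range. In that setting Mir551b differed by 0.29, Mirlet7c-1 by 0.31 and Mir297b by 0.39. Mir297b, of a repeat-rich microRNA cluster in an intron of Sfmbt2, was the only tested gene of that cluster.

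**Figure D2:**
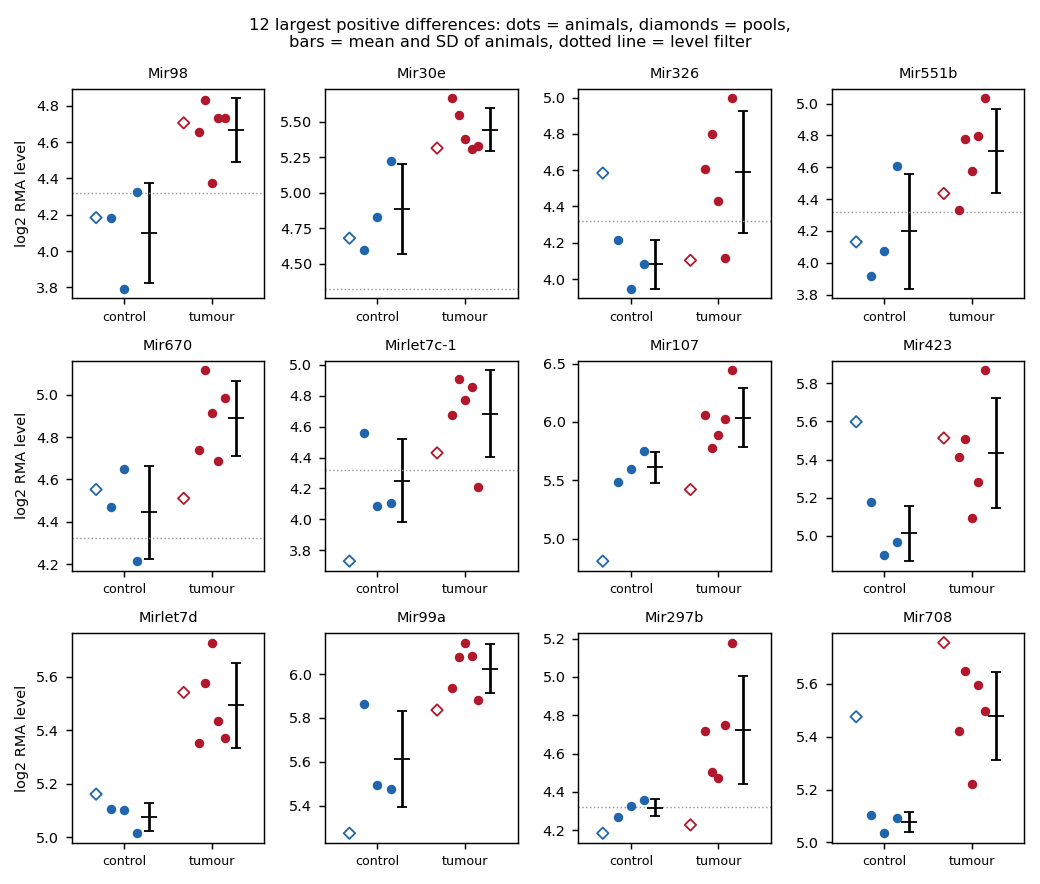
Log2 RMA level (y axis, own scale in each panel) of the 12 genes with the largest positive differences in control and tumour-bearing mice; dots are animals, diamonds the pooled arrays, bars the mean and SD of the animals, and the dotted line the level filter of 4.32. Mir98, Mir30e, Mir670, Mir107, Mirlet7d, Mir99a, Mir297b and Mir708 show no overlap between the animals, and Mir326, Mir551b, Mirlet7c-1 and Mir423 do.

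Negative differences were smaller. The largest were -0.24 ± 0.15 SE for Mir135b, a brain-enriched gene (limma adjusted p = 0.625), and -0.24 ± 0.26 SE for Mir692-1 (limma adjusted p = 0.809). Mir135b read 4.54, 4.80 and 5.04 in the controls and 4.71, 4.41, 4.70, 4.60 and 4.34 in the tumour-bearing mice, so the groups overlapped. Mir692-1 had another probe set with a difference of the other sign, 0.12 ± 0.10 SE, and no direction can be given for it. The next were Mir504 (-0.13), Mir338 (-0.12), Mir365-2 (-0.10), Mir100 (-0.10), Mir125a (-0.10), Mir219a-2 (-0.09), Mir490 (-0.07), Mir677 (-0.07), Mir345 (-0.05) and Mir186 (-0.04), none of them apart between groups. Mir100, Mir125a, Mir186, Mir219a-2, Mir345, Mir490 and Mir677 took the other sign in at least 1 alternative setting.

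The let-7 genes, which act late in development and are held down in stem cells by Lin28, were the largest group with a shared seed. Of 7 tested loci 7 had a positive difference, 4 at an unadjusted p under 0.05 and 0 after adjustment over the table, with a median of 0.33 and a range from 0.00019 for Mirlet7i to 0.57 for Mir98. Beside these, 77 of all 98 genes were positive and 27 were higher at an unadjusted limma p under 0.05. For all tested probe sets the shares were 48.6% and 4.71%. In all, 13 genes of the let-7 family had a probe set of their own, and only these 7 passed the level filter. With values below the level filter set to it, the median of the 7 loci was 0.31. The sign of Mirlet7i and Mirlet7e turned with some single animals left out and with arrays weighted, and that of Mirlet7i also under quantile normalization. Mirlet7b read 4.74, 4.99 and 4.83 against 5.16, 5.15, 5.04, 5.02 and 5.54, with no overlap (0.33 ± 0.14 SE, limma adjusted p = 0.452), but its pools lay the other way, at 5.41 and 5.21. Mirlet7c-2, its neighbour on chromosome 15, differed by 0.12 ± 0.12 SE and its groups overlapped. Lin28a and Lin28b differed by 0.08 ± 0.17 SE and 0.05 ± 0.08 SE (limma adjusted p = 0.908 and 0.886).

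The seed of miR-30 is shared by miR-384. Beside Mir30e, Mir30c-2 differed by 0.35 ± 0.14 SE and Mir384 by 0.18 ± 0.12 SE, so the 3 tested loci whose matched sequences hold this seed were positive; Mir384 turned to -0.079 with a midbrain marker score as covariate. Mir30c-2 differed by 0.17 when values below the level filter were set to it. Mir30d, a miR-30 gene without a matched sequence, differed by 0.26 ± 0.12 SE. Mir384 read 7.27, 6.93 and 6.90 in the controls and 7.16, 7.13, 7.53, 7.17 and 7.11 in the tumour-bearing mice, and control mouse 1 lay above 4 of the 5. Mir107 and Mir103-2 also share a seed, and here the locus on chromosome 2 differed little (0.06 ± 0.11 SE for Mir103-2, in the paralogous kinase gene Pank2, against 0.43 for Mir107). Among the other shared seeds, Mir326 and Mir330 differed by 0.51 and 0.26, and Mir25 and Mir92b by 0.23 and 0.25.

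Several mature microRNAs come from more than 1 locus, and their values are given locus by locus. For miR-9, a microRNA of neural progenitors and neurons, Mir9-1 on chromosome 3 read 6.17, 6.24 and 6.53 against 6.89, 6.66, 6.50, 6.40 and 6.68 (0.31 ± 0.12 SE, limma adjusted p = 0.416). Mir9-2 on chromosome 13 read 6.55, 6.38 and 6.40 against 6.50, 6.39, 6.32, 6.52 and 6.42 (-0.01 ± 0.07 SE). The groups overlapped at both loci. For miR-7a, enriched in neuroendocrine cells, Mir7-1 differed by 0.10 ± 0.10 SE and Mir7-2 by 0.33 ± 0.17 SE, and with 1 animal left out they ran from 0.00038 to 0.21 and from 0.15 to 0.51. Mir7-2 differed by 0.16 when values below the level filter were set to it. For let-7c the values were 0.43 at Mirlet7c-1 and 0.12 at Mirlet7c-2, and for miR-138, abundant in brain, 0.14 at Mir138-1 and 0.27 at Mir138-2. Mir194-1 and Mir194-2 differed by 0.07 and 0.19, Mir365-1 and Mir365-2 by 0.09 and -0.10, and the 3 Mir680 loci by 0.03 to 0.07. Differences between loci were not tested.

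**Figure D3:**
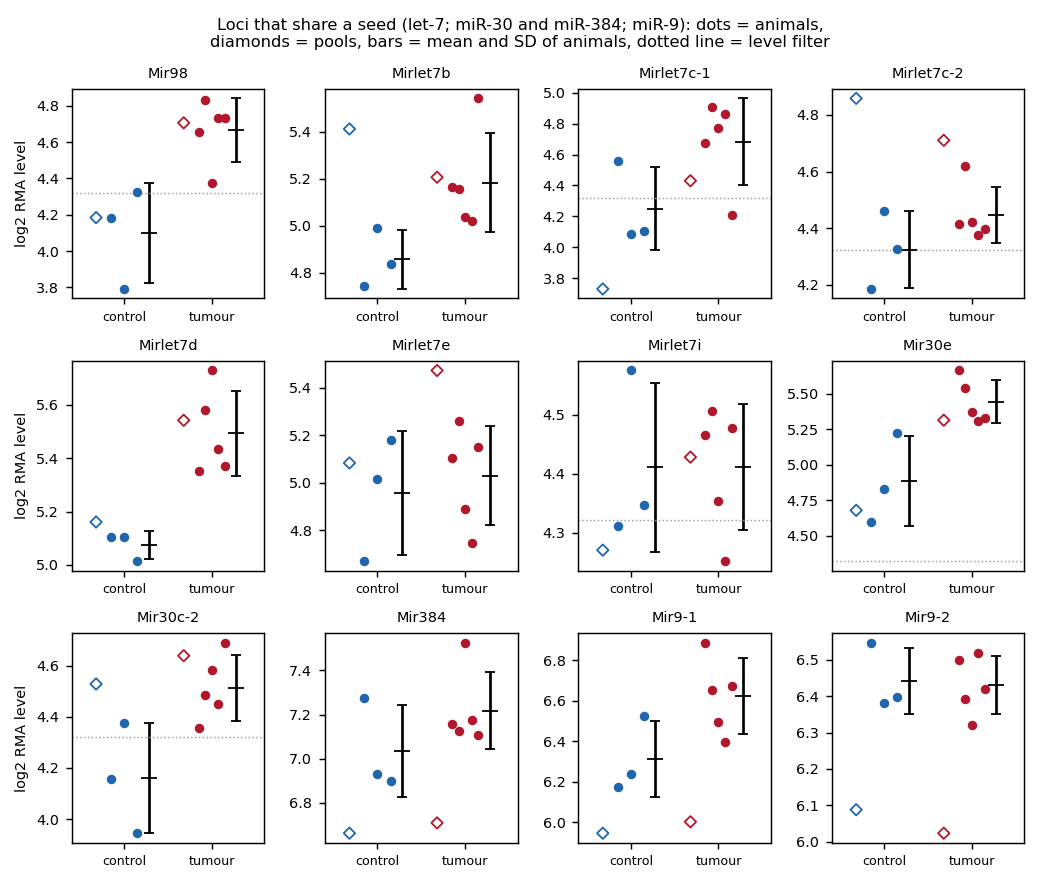
Log2 RMA level (y axis, own scale in each panel) of the 7 tested let-7 loci, of Mir30e, Mir30c-2 and Mir384, which share a seed, and of the 2 tested miR-9 loci. Dots are animals, diamonds the pooled arrays, bars the mean and SD of the animals, and the dotted line the level filter where it falls in range. Mir98, Mirlet7b, Mirlet7d and Mir30e show no overlap between the animals, whereas for Mirlet7i and Mir9-2 the group means are nearly equal.

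In 4 places 2 or more tested genes lay within 10 kb of each other on the same strand. Mir99a and Mirlet7c-1 on chromosome 16 (chr16:77598936-77599000 and chr16:77599657-77599750) are known as products of the transcript Mir99ahg. The search for host genes described below gave no pair of either with Mir99ahg. Mir99a read 5.86, 5.50 and 5.47 in the controls and 5.93, 6.08, 6.14, 6.08 and 5.88 in the tumour-bearing mice (0.41 ± 0.11 SE, limma adjusted p = 0.277), with no overlap, and Mirlet7c-1 differed by 0.43 ± 0.19 SE. The 2 probe sets of the host transcript Mir99ahg differed by -0.03 ± 0.06 SE and 0.02 ± 0.12 SE, and a test of the hairpins against it was not made. In the related cluster on chromosome 17, Mir99b, Mirlet7e and Mir125a differed by 0.02, 0.07 and -0.10, and on chromosome 9 Mir100 differed by -0.10 and its host transcript Mir100hg by -0.04 ± 0.06 SE. Mir191 and Mir425 differed by 0.14 and 0.10.

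For 54 of the 87 hairpin genes with a matched sequence, the RefSeq annotation gave a gene around the hairpin on the same strand. Of these pairs 43 could be tested, with 41 host genes. For the 9 hairpin genes without a matched sequence, Mir297b among them, no host gene was sought. Of the 41 host genes 18 had a positive and 23 a negative difference, with a median of -0.0068 and 0 called by limma (1 higher and 1 lower at an unadjusted p under 0.05). The microRNA gene's difference was above that of its host in 30 of 43 pairs, and the median of the pair differences was 0.083. Huwe1 went from 9.79 ± 0.02 (SD, n = 3) to 9.76 ± 0.02 (SD, n = 5), a difference of -0.02 ± 0.03 SE beside 0.57 for Mir98. For Nfyc the difference was 0.04 ± 0.06 SE beside 0.56 for Mir30e, for Pank1 -0.03 ± 0.06 SE beside 0.43 for Mir107, and for Tenm4 -0.02 ± 0.06 SE beside 0.40 for Mir708. When the microRNA minus host value of each animal was compared between groups, the pairs Mir98 and Huwe1, Mir708 and Tenm4, and Mir342 and Evl reached p = 0.0179, the smallest that the 56 splits of a two-sided exact permutation test allow. After Benjamini-Hochberg adjustment over the 43 pairs the lowest value was 0.256. With 56 splits an adjusted value could pass the threshold only if many pairs reached the smallest p together, so this outcome says little about any single pair.

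**Figure D4:**
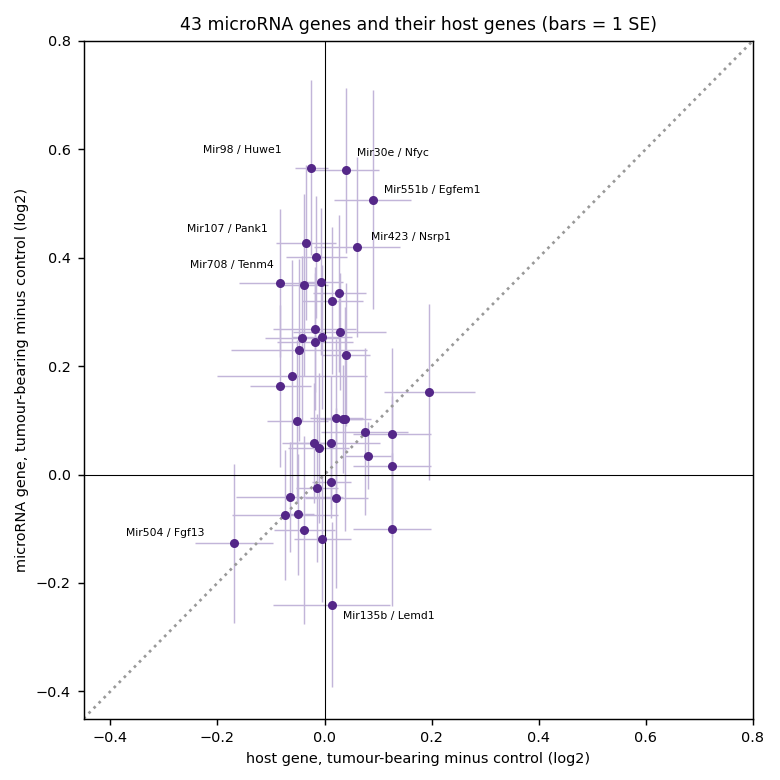
Difference of a microRNA gene (y axis, log2) against that of the gene it lies in (x axis, log2) for 43 pairs, with 1 SE of each fit as bars and a dotted line where both are equal. Host genes lie between -0.17 and 0.20, while microRNA genes reach 0.57, as for Mir98 in Huwe1.

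By known role, the neuronal and brain-enriched genes had 19 tested members, 16 positive and 3 negative, with a median of 0.22 and 0 called by limma (7 higher and 0 lower at an unadjusted p under 0.05); Mir326 had the largest fitted difference, which rests on control values below the filter, and Mir149, Mir708 and Mir346 were the ones without overlap. Of the microRNA genes linked to hypothalamic feeding or metabolism 10 were tested, 8 positive and 2 negative, with a median of 0.19 and 0 called (3 higher and 0 lower at an unadjusted p under 0.05); Mir30e was the largest. Of all 98 genes 77 were positive and 27 were higher at an unadjusted limma p under 0.05. Of all tested probe sets the shares were 48.6% and 4.71%. No list was tested against the whole set. Of 4 glial genes 1 was positive and 3 negative, with a median of -0.06. Mir23b differed by 0.35 ± 0.14 SE, and Mir219a-2 and Mir338, which promote oligodendrocyte maturation, by -0.09 ± 0.39 SE and -0.12 ± 0.12 SE. Mir219a-2 read 4.61, 5.44 and 5.18 in the controls and 5.00, 5.83, 4.73, 5.45 and 3.90 in the tumour-bearing mice. This was the widest spread in the tumour-bearing group of any microRNA gene named here, with tumour-bearing mouse 5 lowest and mouse 2 highest.

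Few genes of the immune and blood groups were above the level. Of the 16 genes of the inflammation and immune list with a probe set of their own, 2 were tested, Mir150 of lymphocytes (0.16 ± 0.14 SE) and Mir125a (-0.10 ± 0.14 SE). Of the vascular and blood cell list 3 were tested, 2 positive and 1 negative, the largest being the erythroid Mir486 at 0.16 ± 0.13 SE. Mir25 was the only tested gene of the miR-17-92 and related clusters, Mir204, a gene of choroid plexus and retina, the only one of the sensory and choroid plexus list (0.36 ± 0.14 SE, limma adjusted p = 0.411), and Mir194-1 and Mir194-2 the only ones of the muscle, liver and other tissue list. Of the testis cluster on the X chromosome and of the mirtron list 0 genes were tested.

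The genes that make and use microRNAs lay close to 0. Of 28 tested processing genes 16 were positive and 12 negative, with a median of 0.02 and 0 called by limma (1 higher and 1 lower at an unadjusted p under 0.05). The largest was Dgcr8, the hairpin-binding partner of Drosha, at 0.13 ± 0.06 SE (limma adjusted p = 0.468). Drosha differed by -0.03 ± 0.05 SE, the export factor Xpo5 by 0.05 ± 0.05 SE, Dicer1 by 0.04 ± 0.04 SE, Ago2 by 0.09 ± 0.05 SE and Ago1 by -0.13 ± 0.05 SE.

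The microRNA genes were also summarised per animal. With each gene centred on its mean over the 8 arrays, the median over the 98 genes was -0.11, -0.11 and -0.07 in the controls and 0.07, 0.06, -0.02, 0.03 and 0.14 in the tumour-bearing mice. Each tumour-bearing mouse was above each control, with mouse 3 nearest to them. The number of genes above their own mean was 26 to 37 of 98 in the controls and 44 to 75 in the tumour-bearing mice. In the pools 60 of 98 genes were higher in the tumour-bearing pool, where 47.4% of all tested probe sets were, with a median of 0.08.

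Marker genes of other tissues and cell types are given beside these values, and limma called 0 members of any marker list. At an unadjusted p under 0.05 in the same fit, 6 midbrain and 4 oligodendrocyte markers were lower. That threshold gave 5 hypothalamic markers and 1 red blood cell marker higher. Of 5 astrocyte markers 1 was higher (Slc1a3) and 1 lower (Aqp4), and of 5 endothelial markers 1 was lower (Tek). It gave 0 microglia, pituitary, neuron or choroid plexus markers either way. Of all tested probe sets 4.71% were higher and 5.82% lower. The score of 7 tested midbrain markers (mean centred log2 level) was 0.36 to 0.68 in the controls and -1.13 to 0.44 in the tumour-bearing mice, with 7 of 7 differences negative and mouse 2 among the controls. In the pools 3 of the 7 were higher in the tumour-bearing pool. The median midbrain difference was -0.11 between the pools, against -0.93 between the single animals. The score of 6 tested oligodendrocyte markers was 0.26 to 0.34 and -0.52 to 0.22, with 6 of 6 differences negative. The score of the 3 tested pituitary markers was 1.91 and 1.86 in tumour-bearing mice 3 and 4, and -1.16 to -0.31 in the other 6 animals. Of the 3, Gh varied most, with an SD of 2.98 among the tumour-bearing mice, against 0.54 for Cga and 0.44 for Lhb. The 5 tested microglia markers had 5 negative differences, with scores of 0.09 to 0.20 and -0.35 to 0.12, and both tested red blood cell markers had positive ones, with scores of -0.95 to -0.54 and -0.24 to 1.81. Of 12 hypothalamic markers, all past the level filter, 10 had a positive difference, with scores of -0.21 to -0.11 and -0.10 to 0.27. In bulk tissue fewer cells of a type and less RNA per cell cannot be told apart. Without tumour-bearing mice 3 and 4 the median difference of the microRNA genes was 0.20, and with the midbrain score as a covariate it was 0.22, while the number of microRNA genes higher at an unadjusted p under 0.05 went from 27 to 14 with that covariate. Apart from mouse 2, every tumour-bearing mouse had a midbrain score below that of each control, so this covariate largely overlaps with the group. With so few arrays the fit cannot separate the score from the group. The part of the midbrain, pituitary, oligodendrocyte, microglia, red blood cell and hypothalamic markers was not tested.

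**Figure D5:**
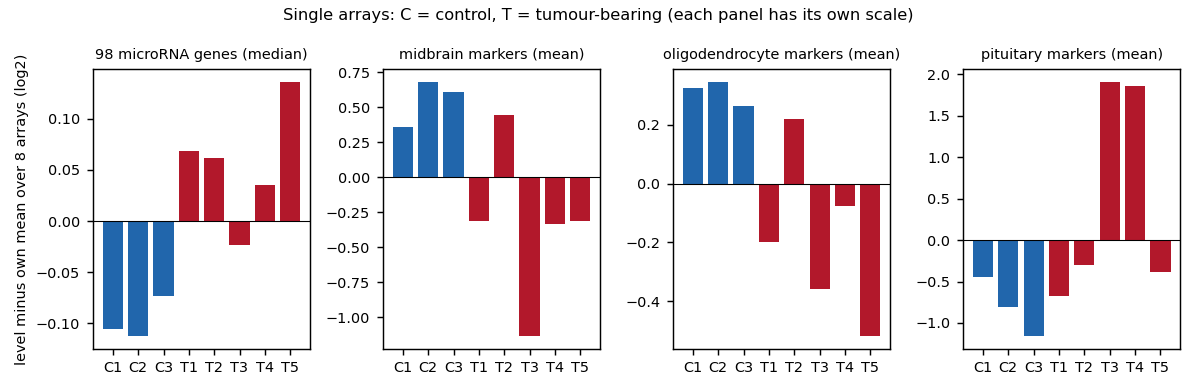
Level of each single array relative to the mean over the 8 arrays (y axis, log2, own scale in each panel) for the median of the 98 microRNA genes and the mean of the midbrain, oligodendrocyte and pituitary markers; C is control and T tumour-bearing. The microRNA bars are below 0 in C1 to C3 and T3, midbrain and oligodendrocyte bars are above 0 in the controls and T2, and pituitary bars are high in T3 and T4.

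For comparison, the 34 tested microRNA genes between Meg3 and Dio3 had 33 positive differences, a median of 0.27 and 5 called, and the 4 tested Mir181 genes a median of 0.40 and 1 called. The 45 tested small nucleolar RNA genes, which are also short and often lie in introns, had 30 positive differences, a median of 0.08 and 0 called (4 higher and 0 lower at an unadjusted p under 0.05). The differences between these groups were not tested. The 12 genes of the set with the brightest probe sets (Mir703, Mir100hg, Mir598, Mir505, Mir99ahg, Mir384, Mir568, Mir680-2, Mir185, Mir218-1, Mir128-1 and Mir690) had differences of -0.04 to 0.29, the highest in Mir505 and the lowest in Mir100hg, and brightness does not rank their abundance.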

How the data were processed

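The authors deposited log2 values of RMA, a method named in the submitters' processing notes; for its version, the probe sets and the array's build the sources used here say nothing. Because RMA forces arrays to 1 distribution, a change in total RNA is not visible, and folds are compressed. The log2 unit was read from the value range. Names came from a platform annotation (21218 probe sets with 1 gene, 1881 with several, 12457 unnamed here), host genes, positions and sequences from RefSeq (GRCm38.p6).

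Probe sets above the level on 3 of 8 single arrays were tested with limma 3.58.1 in R 4.3.3 (statmod 1.5.0; lmFit and eBayes with an intensity trend). P-values, adjusted over all 22837, set each group difference against the variance between these animals. That variance was drawn towards that of probe sets of similar brightness. A gene with 2 probe sets was counted by the brighter. A host gene spans the hairpin on the same strand. The test was checked on simulated data, with changes put into 200 probe sets drawn from all those tested. It called 40.3% of those with a log2 change of 0.5, 88.06% with 1 and 95.45% with 2. A change of 0.5 was therefore often missed. The median level was 6.73 over all tested probe sets and 5.21 over the 98 microRNA genes. These shares therefore need not hold for the microRNA genes, for which no separate check was made. Figures used Python 3.11.15, pandas 2.3.3 and matplotlib 3.10.9.

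The set and its lists were chosen with earlier results of these data known. The text names the 12 largest differences each way, the 12 brightest, the largest of each list, genes without overlap, and genes of shared seeds or clusters; further examples, pairs and list members, among them Mir342, were chosen after their values were seen. Same-numbered control and tumour-bearing mice did not deviate together (correlations -0.0020 to 0.0089), so the numbers do not pair them. Alternatives covered the filter, variance model, array weights, normalization, replicate block, pools as samples, a minimum fold of 1.2, the probe sets tested and each animal left out; leaving out mice 3 and 4, the midbrain covariate and the counts at an unadjusted p or without overlap were added after seeing the data.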

Additional observations from a re-analysis of the deposited data

Results flagged for a closer look

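Among the 66 named genes, 6 had a tumour-bearing mouse far from the other 4, by a gap larger than 0.71 of the group's range, and chance alone gives about 1 in 20 such groups. Mouse 3 was high for Mir384 (7.53) and low for Mir99ahg (7.22). Mouse 5 was high for Mirlet7b (5.54) and Mir7-2 (4.76), mouse 2 was high for Mirlet7c-2 (4.62), and mouse 1 was low for Mir425 (5.01). The groups of 3 control mice are too small for this check.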

How the results depend on the processing

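Over 22 alternative settings, 0 microRNA genes, 0 host genes and 0 processing genes were called. Of 1434 alternative values for the 66 named genes, 1364 kept their direction, 70 in 26 genes turned it and 0 were called. The cause was not tested. Settings that changed only the filter, the variance model, the minimum fold or the probe sets tested left each gene's difference as it was. They could not turn a direction, so part of the 1364 was fixed in advance. The number of calls among all tested probe sets was less stable than the microRNA values: 13 became 5 with no filter, 4 with no intensity trend, 24 with array weights, 2 with a minimum fold, 72 with only 1-gene probe sets, 0 without mice 3 and 4, 0 with the midbrain covariate, and 0 to 66 with 1 animal left out. The replicate block, which pairs animals only by number, gave 0 calls in all; 10 microRNA genes were then higher at an unadjusted p under 0.05, and the median difference was 0.15. That count, 27, was 2 with a minimum fold, 14 with the midbrain covariate and 14 to 25 with 1 animal left out. Of all 264 genes, unfiltered, 171 were positive, with a median of 0.068; the median was 0.20 without mice 3 and 4 and 0.22 with the midbrain covariate. Genes without overlap numbered 15 to 27 with 1 animal left out (4% to 7.89% of all tested probe sets) and 30 without mice 3 and 4 (7.39%).

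With 1 animal left out, differences ran from -0.19 to 0.0073 for Mir100, -0.018 to 0.068 for Mir185, -0.14 to 0.028 for Mir186, -0.33 to 0.18 for Mir219a-2, -0.13 to 0.035 for Mir345, -0.031 to 0.29 for Mir365-1, -0.0035 to 0.17 for Mir425 and -0.089 to 0.10 for Mir568. They ran from -0.14 to 0.036 for Mir677, -0.075 to 0.12 for Mir680-1, -0.067 to 0.14 for Mir680-3, -0.072 to 0.042 for Mir690, -0.0055 to 0.20 for Mir703, -0.041 to 0.042 for Mir9-2, -0.091 to 0.018 for Mir99ahg, -0.073 to 0.089 for Mir99b, -0.068 to 0.19 for Mirlet7e and -0.050 to 0.082 for Mirlet7i. Array weights turned Mir568 (0.078), Mir690 (0.0048), Mir9-2 (0.023), Mir99ahg (0.0090), Mir99b (-0.064), Mirlet7e (-0.0066) and Mirlet7i (-0.069). The midbrain covariate turned Mir100 (0.14), Mir103-2 (-0.16), Mir125a (0.088), Mir185 (-0.0098), Mir194-1 (-0.066), Mir219a-2 (0.57), Mir25 (-0.043), Mir345 (0.22), Mir384 (-0.079), Mir490 (0.018), Mir680-1 (-0.022), Mir703 (-0.043), Mir9-2 (0.0077) and Mir99ahg (0.0044). Pools as samples turned Mir100hg (0.022), Mir186 (0.0026), Mir680-1 (-0.0060), Mir703 (-0.022) and Mir9-2 (0.0095). Quantile normalization turned Mir9-2 (0.0011) and Mirlet7i (-0.0077), and the replicate block turned Mir219a-2 (0.11), Mir680-1 (-0.081) and Mir680-3 (-0.018). Leaving out mice 3 and 4 turned Mir125a (0.0084), Mir194-1 (-0.016), Mir345 (0.12), Mir680-1 (-0.045) and Mir680-2 (-0.033).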
